A study of Mus musculus with 20 samples.

Results

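Retinoid metabolism genes were followed through diet-induced obesity and weight loss (WL) in the adipocyte translatome of mouse epididymal adipose tissue (epiAT). The members were the 8 rows of the gene count table whose Ensembl identifiers carry the symbols Dhrs9, Dhrs3, Rdh10, Aldh1a1, Aldh1a2, Retsat, Stra6 and Rarb, of 46078 genes in all. Messenger RNA bound to ribosomes was collected by translating ribosome affinity purification with sequencing (TRAP-seq) from 20 mice, 1 library a mouse. All mice were AdipoERCre x NuTRAP, labelled as on a C576BL6 background, in which tamoxifen switches on a GFP-tagged ribosomal protein in cells that use the adiponectin promoter. GFP pulldown started from tissue lysate in which every cell type of the depot was present, so RNA of other cells can be carried along, and fewer cells of a type cannot be told apart from less RNA per cell. Groups C (18 weeks old, chow) and H (18 weeks old, 12 weeks of high-fat diet, HFD) and groups CC_s (26 weeks old, chow) and HC (26 weeks old, 12 weeks of HFD followed by 8 weeks of chow) made up the short arm, with 3 mice each. Groups CC_l (31 weeks old, chow) and HH (31 weeks old, 25 weeks of HFD) and groups CCC (39 weeks old, chow) and HHC (39 weeks old, 25 weeks of HFD followed by 8 weeks of chow) made up the long arm, with 2 mice each. HC and HHC are the WL groups, and the control of each was the chow group of equal age in the same arm, as it was for H and HH. Per the study's methods, the chow of C and CC_l was a low-fat diet. Control and WL mice alike received a different chow in the WL period. CC_s and CCC therefore differ from C and CC_l in diet as well as in age. The library names of the arms carry different prefixes, whose meaning the labels do not give, so a difference between arms cannot be told apart from what the prefixes mark.

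Retinol, or vitamin A, circulates bound to the protein Rbp4, can enter cells through the membrane receptor Stra6, and is kept in adipocytes as retinyl esters. Retinol is oxidised reversibly to retinal by short-chain dehydrogenases such as Rdh10 and Dhrs9, Dhrs3 carries out the reverse reduction, and the retinal dehydrogenases Aldh1a1 and Aldh1a2 convert retinal irreversibly to retinoic acid. Retinoic acid binds the nuclear receptors of the RAR family, among them Rarb, whose own gene is a classical target of retinoic acid, and Retsat saturates retinol to dihydroretinol and is a target of the adipogenic receptor PPARγ.

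Dhrs9 lay on mm10 chromosome 2, from 69380445 to 69404533 on the plus strand (ENSMUSG00000027068). The 233 bases directly before its first annotated exon are shown because Dhrs9 is the member whose level moved furthest, with the single retinoic acid receptor half-site of that stretch in capitals, read on the minus strand and starting 88 bases before the RefSeq gene start (RefSeq, GRCm38.p6, chr2:69380212-69380444, plus strand).
Dhrs9 upstream: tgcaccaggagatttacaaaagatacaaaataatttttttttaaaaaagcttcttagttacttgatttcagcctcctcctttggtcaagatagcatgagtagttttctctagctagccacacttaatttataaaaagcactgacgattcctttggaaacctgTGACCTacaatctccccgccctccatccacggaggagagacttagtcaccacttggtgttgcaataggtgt
Rarb lay on chromosome 14, from 16430839 to 16819156 on the minus strand (ENSMUSG00000017491). Its RefSeq window held a direct repeat of half-sites with 5 bases between them, the arrangement that RAR dimers classically bind, starting 53 bases before the RefSeq gene start and inside an annotated Rarb exon, and both half-sites are in capitals (GRCm38.p6, chr14:16575507-16575535, minus strand).
Rarb direct repeat: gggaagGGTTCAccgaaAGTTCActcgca
Half-sites were searched on both strands as AGGTCA and as GGGTCA, and also as AGTTCA and as GGTTCA, in windows of 300 bases, from 250 before to 50 after a gene start. A half-site stood in 43.7% of 32851 windows of all genes, whereas the repeat with 5 bases between stood in 32 windows (0.0974%). Of the 7 members with a window (13 windows, none for Rdh10), only Rarb held that repeat, and none held the repeats with 1 or 2 bases between, which stood in 0.222% and 0.268% of all windows. A match describes the letters in the window and is not evidence of binding.

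Library totals ran from 10710277 to 36738954 counts on genes. A mouse's level is given as CPM, a gene's counts scaled to a library total of 1000000 counts on genes. Adipocyte markers were abundant in every library, with a summed level of 8 markers between 21315 and 96148 CPM, lowest in CCC replicate 2, C replicates 1 and 2 and HC replicate 3. Epididymal epithelium transcripts reached 1952 CPM (6 markers summed) in C replicate 1, and male germ cell transcripts reached 3387 CPM (5 markers) in CC_l replicate 1 and 576 CPM in HC replicate 3. Groups were compared by edgeR's quasi-likelihood test over 21464 genes that passed a filter on low counts, all 8 members among them. A gene was called at p below 0.01 with a log2 fold change of at least 1 in either direction, the study's cut-offs, and p-values adjusted over all tested genes by the Benjamini-Hochberg method are given beside it. The labels number the mice of a group as biological replicates.

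Per kilobase of exon, the members differed widely in the 10 chow mice that had never received HFD. Dhrs3 had a median level of 75.2 CPM per kilobase (range 33.5 to 121) and Aldh1a1 had 68.6 (24.9 to 101), so the reductase and the retinal dehydrogenase were the most abundant members and their ranges overlapped. Retsat followed at a median of 13.1 CPM per kilobase (6.36 to 30.9), Rdh10 at 2.63 (1.53 to 5.26) and Aldh1a2 at 1.19 (0.639 to 6.62). Rarb stood at 0.583 CPM per kilobase (0.209 to 0.997). Dhrs9 (0.0276, range 0 to 0.412) and Stra6 (0.0208, 0 to 0.137) were at or near the detection limit in most of these mice. The range of each member overlapped that of the next in this order, except that Retsat lay above Rdh10 in all 10 mice.

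**Figure D1:**
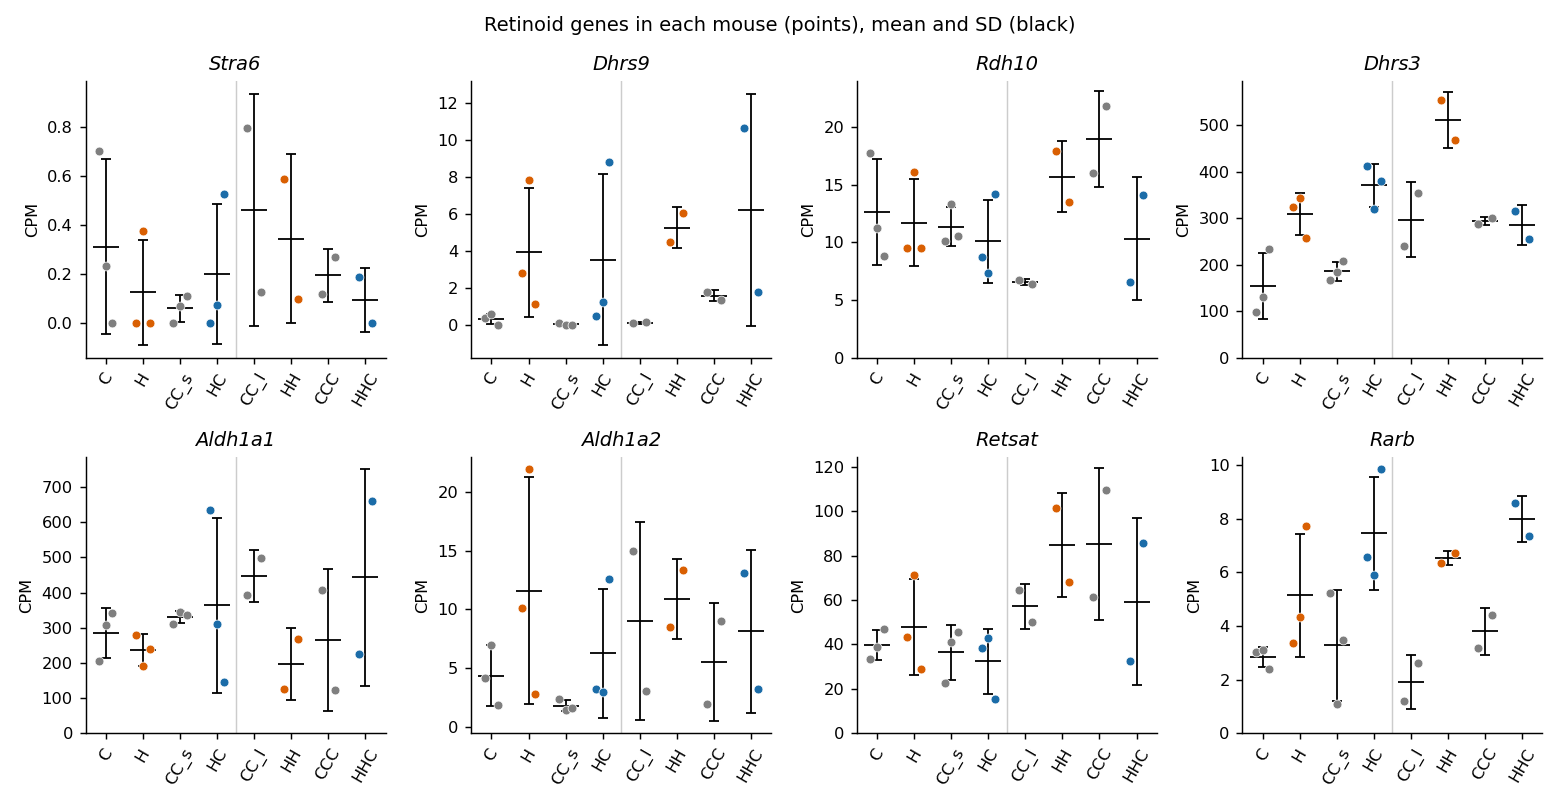
Level of each retinoid gene in CPM (linear axes) in every mouse, by group, with short-arm groups left of the grey line, chow groups in grey, HFD groups in orange and WL groups in blue. Black bars give the mean and SD. Dhrs9 stood at or below 0.575 CPM in C, CC_s and CC_l and reached 10.6 CPM in HHC, and every HFD or WL mouse exceeded its chow group for Dhrs9 and Rarb.

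Dhrs9, a retinol dehydrogenase that also acts on hydroxysteroids, was higher in HFD and WL mice than in chow mice and was the only member called, in H, HC and HH. The 3 C mice had 0.350, 0.575 and 0 CPM and the 3 H mice had 2.79, 7.83 and 1.10 CPM. In the WL comparison of the short arm, the CC_s mice had 0.112, 0 and 0 CPM and the HC mice had 0.490, 1.23 and 8.81 CPM. The groups of each pair did not overlap, and 1 mouse, H replicate 2 and HC replicate 3, stood far above the others of its group. In the long arm, the CC_l mice had 0.0663 and 0.125 CPM and the HH mice 4.45 and 6.03 CPM. The CCC mice, at 1.76 and 1.34 CPM, lay above every other chow mouse, and the HHC mice had 10.6 and 1.77 CPM, so that HHC replicate 2 was barely above CCC replicate 1.

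The log2 fold change of Dhrs9 was 3.66 in H (SE 1.26, adjusted p = 0.147 in edgeR's quasi-likelihood test), 5.996 in HC (SE 1.51, adjusted p = 0.529) and 5.65 in HH (SE 1.74, adjusted p = 0.103). In HHC it was 2.00 (SE 1.42, adjusted p = 0.641) and was not called. Of all tested genes, 3.57% were called higher in H, and the share was 1.57% for HC, 4.92% for HH and 0.447% for HHC. The unadjusted p in H lay at the limit of 0.01, and the call was lost without C replicate 1, 2 or 3, H replicate 1 or H replicate 2 (log2 fold change 2.72, adjusted p = 0.464, without H replicate 2). It was also lost with RLE normalization (3.52, adjusted p = 0.172) and in a fit of C and H alone (3.63, adjusted p = 0.144). The HH call was lost without CC_l replicate 1, CC_l replicate 2 or HH replicate 2 (adjusted p up to 0.520, log2 fold change 5.15 to 6.18), whereas the HC call held without each mouse in turn, at log2 fold changes of 4.48 to 8.98.

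These fitted folds rest on few counts in the controls. Dhrs9 had 342 counts in H against 16 in C, a ratio of CPM over the pooled libraries of 17.8 (95% exact counting interval 10.8 to 31.5). HC held 186 counts against 2 in CC_s, a ratio of 76.2 (20.8 to 634). HH held 213 counts against 4 in CC_l, a ratio of 60.4 (23.3 to 224), and HHC held 152 against 50 in CCC, a ratio of 3.02 (2.18 to 4.24). The intervals cover counting error only, not the spread between mice, and reads from amplified cDNA are not independent molecules. Of the non-zero counts of a library, 74.4% to 89.2% were even, as when both ends of a pair are counted. The intervals take each count as independent, so they can be too narrow even for counting error.

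Summed macrophage markers were higher without overlap in H, HC and HH. Taken singly, Itgam, Cd14 and Ptprc overlapped between C and H, and Itgam and Cd14 between CC_s and HC. In HHC the sums overlapped those of CCC. There Dhrs9 lay above both CCC mice, in HHC replicate 2 only at 1.773 CPM against 1.763 CPM in CCC replicate 1. The summed level of 9 macrophage markers was 132 to 318 CPM in C and 507 to 3508 in H, 134 to 151 in CC_s and 371 to 1548 in HC, 201 to 342 in CC_l and 3249 to 4369 in HH, and 668 to 872 in CCC and 601 to 1280 in HHC. Calls higher numbered 6 of 9 in H, 6 in HC, 9 in HH and 0 in HHC (edgeR). The 6 markers of lipid-associated macrophages summed to 36.9 to 147 CPM in C and 233 to 1404 in H, to 41.1 to 88.5 in CC_s and 147 to 1781 in HC, to 38.5 to 323 in CC_l and 1694 to 1729 in HH, and to 259 to 295 in CCC and 224 to 511 in HHC, where CCC and HHC overlapped. Of these 6, 5 were called higher in H, 4 in HC, 2 in HH and 0 in HHC. H replicate 2, HC replicate 3 and HHC replicate 1 had the highest Dhrs9 and the highest macrophage sum of their groups, and the CCC mice, with the highest Dhrs9 among chow mice, also had the highest macrophage sums among chow mice. The same HFD and WL mice had the highest lymphocyte sums of their groups (5 markers, 15.8, 31.6 and 99.5 CPM). Their dendritic cell sums (6 markers) were also the highest, at 71.0, 75.7 and 57.0 CPM, as were their endothelial sums. Adipocyte progenitor sums were highest in H replicate 2 and HC replicate 3 but not in HHC replicate 1. Among chow mice, the CCC mice also had the highest lymphocyte sums, at 17.4 and 24.0 CPM. Per 1000 CPM of macrophage markers, Dhrs9 was at 2.18 to 2.30 CPM in H, 1.37 and 1.38 in HH, 1.32 to 5.69 in HC and 2.95 and 8.32 in HHC, against 0 to 1.81 in C, 0 to 0.790 in CC_s, 0.331 and 0.365 in CC_l and 1.54 and 2.64 in CCC. The part of RNA of macrophages or of these other cells in the level of Dhrs9 was not tested.

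**Figure D2:**
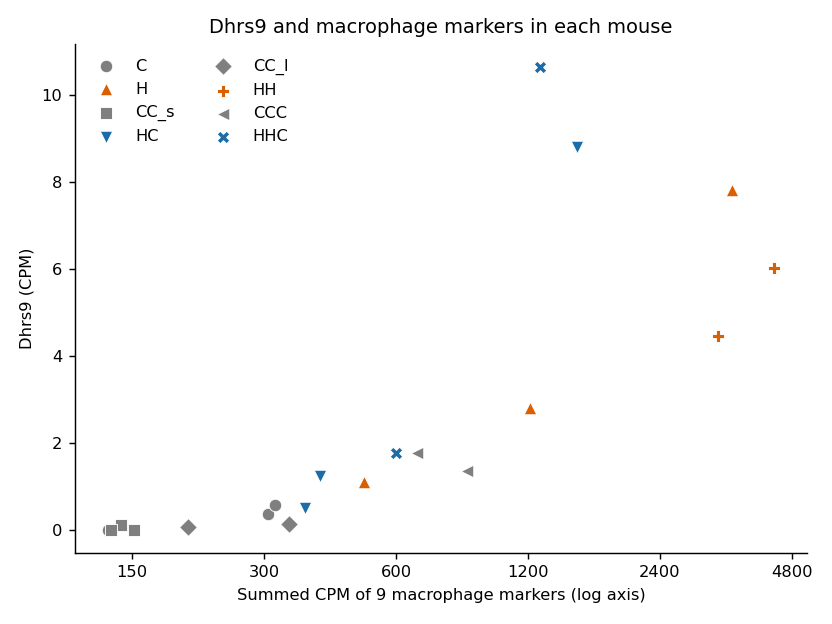
Level of Dhrs9 (CPM, linear axis) against the summed level of 9 macrophage markers (CPM, log axis) in each of the 20 mice, with a marker shape for each group. Mice with macrophage sums of 342 CPM or less had at most 0.575 CPM of Dhrs9, and the 4 mice with the most Dhrs9 had macrophage sums between 1280 and 4369 CPM.

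The genes whose log2 CPM ran most like that of Dhrs9 over the 20 libraries were Gas2l3 (Pearson's r = 0.951), Clec12a (0.9498), a myeloid lectin receptor, and Cd300lb (0.948), a myeloid immunoglobulin-type receptor, as a description that mixes groups, ages and arms.

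Rdh10, the retinol dehydrogenase that supplies most retinal in the embryo, was called in no comparison and lay on opposite sides of its controls in the long arm. The CC_l mice had 6.77 and 6.35 CPM and the HH mice 17.9 and 13.5 CPM, whereas the CCC mice had 16.0 and 21.9 CPM and the HHC mice 6.54 and 14.1 CPM. Both pairs were without overlap, HH above its control and HHC below. In either direction, 56.3% of all tested genes did not overlap in HH and 27.9% in HHC. The log2 fold change of Rdh10 was 1.17 in HH (SE 0.47, adjusted p = 0.211 in edgeR's test) and -0.62 in HHC (SE 0.46, adjusted p = 0.659). The HHC effect minus the HH effect was -1.80 (SE 0.66, adjusted p = 0.197). Adjusted p below 0.05 was reached for that difference by 0.815% of genes. Without HHC replicate 2 Rdh10 passed the cut-offs in HHC, at a log2 fold change of -1.55 (adjusted p = 0.315). In the short arm Rdh10 overlapped between groups, at 8.84 to 17.7 CPM in C, 9.53 to 16.1 in H, 10.2 to 13.3 in CC_s and 7.35 to 14.2 in HC.

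Dhrs3, the reductase that returns retinal to retinol and is itself induced by retinoic acid, was higher without overlap in H, HC and HH and not in HHC. The C mice had 98.1, 131 and 233 CPM and the H mice 324, 344 and 258 CPM. The CC_s mice had 166, 183 and 208 CPM and the HC mice 413, 320 and 379 CPM. In these pairs every HFD or WL mouse lay above every chow mouse, C replicate 3 coming nearest to the H mice. The CC_l mice had 240 and 354 CPM and the HH mice 553 and 469 CPM, and the CCC mice had 288 and 300 CPM and the HHC mice 316 and 254 CPM. The log2 fold change was 0.74 in H (SE 0.42, adjusted p = 0.393 in edgeR's test), 0.83 in HC (SE 0.42, adjusted p = 0.586), 0.68 in HH (SE 0.52, adjusted p = 0.511) and 0.10 in HHC (SE 0.52, adjusted p = 0.999). None passed the cut-offs, but without C replicate 3 the change in H did, at 1.47 (adjusted p = 0.0413).

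Aldh1a1, the main retinal dehydrogenase of mature adipocytes, overlapped between the groups in H, HC and HHC. Its level was 206 to 342 CPM in C, 190 to 280 in H, 310 to 346 in CC_s and 147 to 635 in HC. The CC_l mice had 394 and 498 CPM and the HH mice 125 and 269 CPM, without overlap and lower in HH. The CCC mice had 409 and 123 CPM and the HHC mice 225 and 662 CPM, a wide spread within both groups. The log2 fold changes were -0.47 (SE 0.65), 0.11 (0.65), -1.28 (0.81, adjusted p = 0.417 in edgeR's test) and 0.91 (0.81) in H, HC, HH and HHC. A share of 3.06% of the 50-base words of Aldh1a1 also occurs in its paralog Aldh1a7, so a small part of its counts could belong to either gene.

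Aldh1a2, the retinal dehydrogenase of the embryo and of mesothelium and several stromal and immune cells, was higher without overlap in HC. The CC_s mice had 2.34, 1.45 and 1.64 CPM and the HC mice 3.21, 2.96 and 12.6 CPM. The C mice had 4.20, 7.02 and 1.85 CPM and the H mice 10.1, 21.9 and 2.81 CPM. HC replicate 3 and H replicate 2, which were also the highest mice of their groups for Dhrs9, had the highest levels, and C and H overlapped. In the long arm the groups overlapped, at 15.0 and 3.05 CPM in CC_l, 8.50 and 13.3 in HH, 2.00 and 9.06 in CCC and 13.1 and 3.27 in HHC. The log2 fold changes were 1.33 (SE 0.75, adjusted p = 0.379 in edgeR's test) in H, 1.40 (0.75, adjusted p = 0.597) in HC, 0.24 (0.90) in HH and 0.71 (0.91) in HHC. Mesothelial markers (6 of 7 in the table, summed) were at 30.6 to 76.8 CPM in CC_s and 60.2 to 163 CPM in HC, with HC replicate 3 highest. In C they were at 51.6 to 325 CPM and in H at 56.1 to 63.0 CPM, and 2 of 6 were called lower in H, where their median log2 fold change was -1.44. Male germ cell transcripts were highest in CC_l replicate 1 (3387 CPM) and HC replicate 3 (576 CPM), which also had the highest Aldh1a2 of their groups. C replicate 1, next at 97.3 CPM, did not have the highest Aldh1a2 of its group. The part of mesothelial or germ cell RNA in the level of Aldh1a2 was not tested.

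Retsat was called in no comparison. Its mean level was 39.6 ± 6.73 CPM in C and 47.8 ± 21.5 in H, 36.5 ± 12.3 in CC_s and 32.4 ± 14.7 in HC (SD, n = 3), and the groups of each pair overlapped. The HH mice, at 101 and 68.1 CPM, lay above the CC_l mice at 64.4 and 50.0 CPM, whereas CCC (61.1 and 109 CPM) and HHC (32.7 and 85.8 CPM) overlapped. The log2 fold changes were 0.05 (SE 0.52), -0.25 (0.52), 0.49 (0.64) and -0.24 (0.64) in H, HC, HH and HHC, all within 1 standard error of 0. Of the exon bases of Retsat 18.4% overlap Gm45053 on the opposite strand, and the library kit does not mark strand.

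Stra6, the receptor for retinol-bound Rbp4, was at most 0.796 CPM in any mouse, in CC_l replicate 1, and its groups overlapped in every comparison. It had 16 counts in C, 12 in H, 4 in CC_s, 10 in HC, 26 in CC_l, 14 in HH, 6 in CCC and 2 in HHC, which allowed no difference to be detected at this depth. The fitted log2 fold changes lay between -1.27 and 1.08, with standard errors of 1.88 to 2.46.

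Rarb was higher in HFD and WL mice than in their chow controls in all 4 comparisons, without overlap, although no single comparison passed the cut-offs. The C mice had 3.04, 3.11 and 2.40 CPM and the H mice 3.37, 4.35 and 7.73 CPM. The CC_s mice had 5.25, 1.10 and 3.49 CPM and the HC mice 6.59, 5.91 and 9.87 CPM. H replicate 1 lay just above the C mice, and HC replicate 2 just above CC_s replicate 1. The CC_l mice had 1.19 and 2.61 CPM and the HH mice 6.35 and 6.72 CPM, and the CCC mice had 3.17 and 4.43 CPM and the HHC mice 8.59 and 7.37 CPM, wider gaps than in the short arm.

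The log2 fold change of Rarb was 0.72 in H (SE 0.55, adjusted p = 0.531 in edgeR's test), 0.95 in HC (SE 0.55, adjusted p = 0.620), 1.66 in HH (SE 0.69, adjusted p = 0.231) and 1.24 in HHC (SE 0.68, adjusted p = 0.538). Of the exon bases of Rarb 38.4% overlap genes on the opposite strand, most of them in exons of Top2b, a DNA topoisomerase. Reads of Rarb and Top2b cannot be told apart there without strand. Top2b itself had log2 fold changes of 0.21, -0.08, 0.56 and -0.08 in H, HC, HH and HHC, at 44.0 to 97.7 CPM over the 20 mice.

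**Figure D3:**
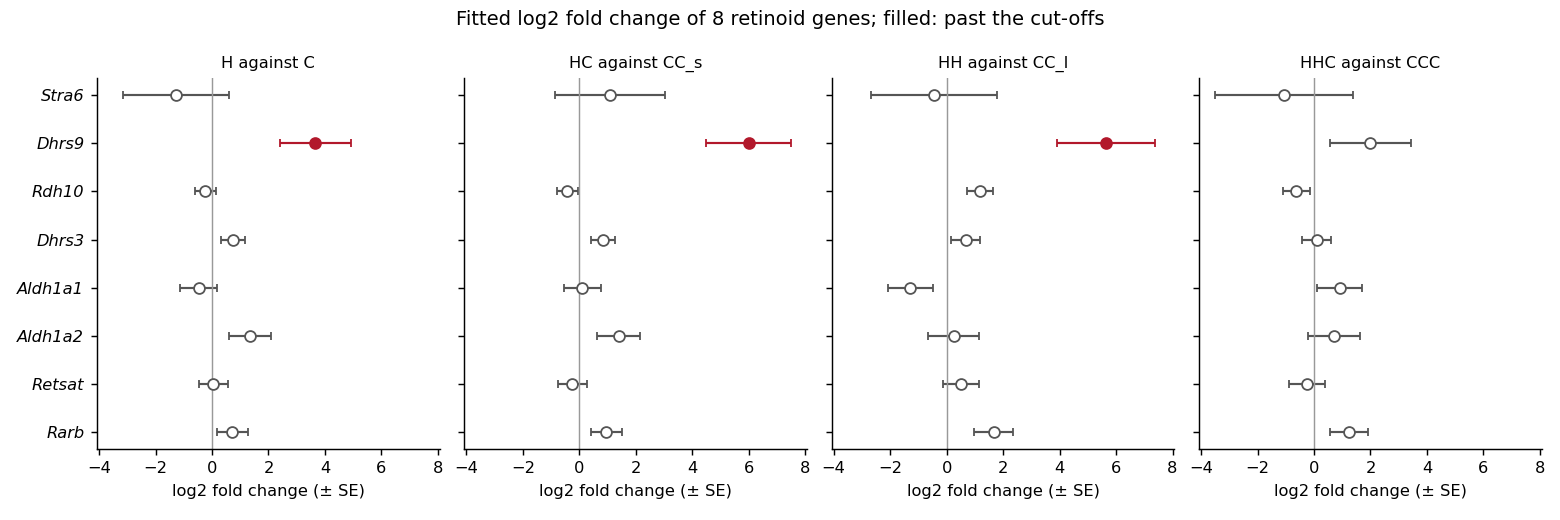
Fitted log2 fold change of the 8 genes in the 4 comparisons, with bars of 1 standard error, and filled red points where p was below 0.01 with a log2 fold change of at least 1. Dhrs9 is the only filled point in H, HC and HH, Rarb lies right of 0 in every panel, and no point is filled in HHC.

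Dhrs9 and Rarb were the 2 members that were higher without overlap in all 4 comparisons, a pattern held by 90 tested genes (0.419%). The members were chosen with earlier results of these data known. No share or median of all genes set beside them is therefore a test of the list. After this pattern had been seen, the average of the 4 log2 fold changes was tested as 1 contrast in the same fit, so its p-values describe a comparison chosen with the values known. It was 4.33 for Dhrs9 (SE 0.76, adjusted p = 0.00265 in edgeR's test) and 1.14 for Rarb (SE 0.31, adjusted p = 0.0350). For Dhrs9 the adjusted p stayed at or below 0.0221 with each of the 20 mice left out in turn. For Rarb it rose above 0.05 in 12 of the 20 omissions, up to 0.0829 without CC_l replicate 1, where the mean effect was 1.01. Adjusted p below 0.05 was reached by 4.15% of genes in the higher and 2.57% in the lower direction. The mean effect of Dhrs3 was 0.58 (SE 0.24, adjusted p = 0.155, or 0.0166 without C replicate 3) and that of Aldh1a2 0.92 (SE 0.41, adjusted p = 0.206), and those of Rdh10 (-0.03), Retsat (0.01), Aldh1a1 (-0.19) and Stra6 (-0.43) were within 1 standard error of 0.

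Set side by side, 3 members were higher without overlap in the H comparison and 4 in the HC comparison, with none lower, whereas HH had 5 higher and 1 lower, and HHC 2 higher and 1 lower. In either direction, 24.1% of tested genes did not overlap between H and C, 13.6% between HC and CC_s, 56.3% between HH and CC_l, and 27.9% between HHC and CCC. The median log2 fold change of the members was 0.39 in H, 0.89 in HC, 0.58 in HH and 0.41 in HHC, beside -0.15, 0.27, -0.23 and -0.06 for all tested genes. No member was called lower, and calls lower made up 2.92%, 0.172%, 1.88% and 2.67% of tested genes in H, HC, HH and HHC.

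Whether an effect differed between HFD and WL, or between the arms, was tested as a difference of effects. No member reached adjusted p below 0.05 in edgeR's test in any of the 4 differences, nor with DESeq2. At unadjusted p below 0.05 Rdh10 alone passed, in HHC minus HH (above), where 15.5% of all tested genes did, and in HH minus H (1.41, SE 0.60, adjusted p = 0.848). For HC minus H, HH minus H and HHC minus HC, 0% of genes reached adjusted p below 0.05 and 11.8%, 5.79% and 11.8% had unadjusted p below 0.05. For Dhrs9 the HC effect minus the H effect was 2.34 (SE 1.80, adjusted p = 0.677) and the HHC effect minus the HC effect -4.00 (SE 1.98, adjusted p = 0.442 in edgeR's test), so that the smaller change in HHC was not separated from that in HC.

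Of 66 further symbols of retinoid handling, 65 were in the table and 50 were tested. In H 2 were called higher and 9 lower, in HC 0, in HH 4 higher and 1 lower, and in HHC 1 lower. Of all tested genes 3.57% were called higher and 2.92% lower in H, and 1.57% and 0.172% in HC. These shares were 4.92% and 1.88% in HH, and 0.447% and 2.67% in HHC. With adjusted p below 0.05, 5 of the 50 fell in H, where 0.839% of all tested genes did. None of the 50 passed elsewhere, against 0% of all tested genes in HC, 2.07% in HH and 0% in HHC. At unadjusted p below 0.05, 14 of the 50 passed in H (17.1% of all tested genes did), 5 in HC (8.69%), 8 in HH (17.4%) and 6 in HHC (10.7%). DESeq2 called 3 in HC. Their median log2 fold change was -0.19 in H, 0.26 in HC, -0.18 in HH and 0.01 in HHC, near that of all tested genes.

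Among 7 tested genes of retinol uptake and binding, Rbp7, a cellular retinol-binding protein of adipose endothelium, rose in H (log2 fold change 2.71, SE 0.85, adjusted p = 0.104 in edgeR's test) and in HH (4.03, SE 1.10, adjusted p = 0.0656). It was at 19.2 to 49.8 CPM in C and 127 to 480 in H, and at 9.96 and 14.4 in CC_l and 130 and 287 in HH, without overlap. The H call was lost without C replicate 1, 2 or 3 or H replicate 2 (adjusted p up to 0.392) and the HH call without CC_l replicate 1 or 2 or HH replicate 1 (adjusted p up to 0.410). In both WL comparisons it overlapped its controls, at 11.3 to 130 CPM in HC and 6.35 and 33.6 in HHC. Endothelial markers (5 summed) were at 155 to 593 CPM in C and 1119 to 1702 in H, 131 and 139 in CC_l and 715 and 1297 in HH, and 4 of 5 were called higher in H and 5 of 5 in HH. Their part in the level of Rbp7 was not tested. Lrp2, an endocytic receptor of epithelia that takes up retinol-binding protein, fell by 2.78 on the log2 scale in H, lost the call without H replicate 3 (adjusted p = 0.205) and was at -0.77 without C replicates 1 and 2 together. That omission and the leaving out of each mouse for these further genes were chosen after the values had been seen, and the former leaves C with 1 library, which is assumed to vary like the other groups.

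Among 6 tested genes of esterification and ester hydrolysis, the carboxylesterases Ces1d and Ces1f, which hydrolyse neutral lipid esters, fell in H. Ces1d was at 775 to 899 CPM in C and 190 to 278 in H (log2 fold change -2.09, SE 0.51, adjusted p = 0.0422 in edgeR's test). Ces1f was at 108 to 201 CPM in C and 16.2 to 20.5 in H (-3.26, SE 0.48, adjusted p = 0.00363). Neither was called after WL or in HH. In HC Ces1d lay below its controls without overlap, at 295 to 469 CPM against 645 to 1029 CPM in CC_s (-1.23, adjusted p = 0.544), and in HH and HHC it overlapped them. Both calls in H held without each mouse in turn and without C replicates 1 and 2 together. Ces1 genes are a family of close paralogs, so counts could be shared among them. Of the other genes of this group, the lipases Lpl (mean 6953 CPM over all mice), Lipe (929) and Pnpla2 (598) and the acyltransferase Dgat1 (167) were not called in any comparison. The serum carrier Rbp4 (1319 CPM), the oxidoreductases Adh1 (285) and Dhrs7 (178) and the corepressor Ncor1 (273), the other abundant genes of the list, were not called either.

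**Figure D4:**
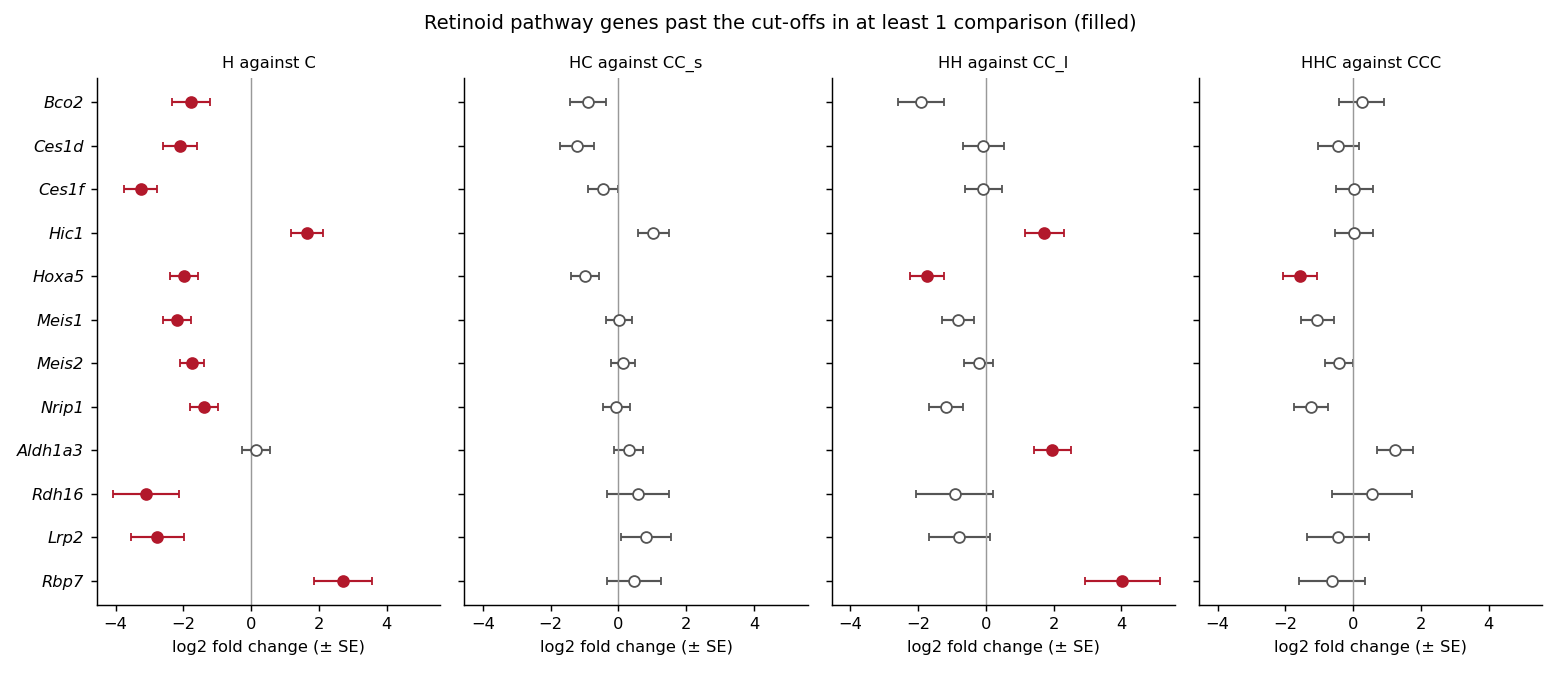
Fitted log2 fold change with bars of 1 standard error for 12 further retinoid genes called in at least 1 comparison, with calls filled in red. Most calls are in H, no point is filled in HC, and Hoxa5 is filled in H, HH and HHC.

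In the remaining roles, Bco2, a carotenoid-cleaving oxygenase, fell by 1.78 and Rdh16, a retinol dehydrogenase, fell by 3.11 on the log2 scale in H, with adjusted p of 0.105 and 0.110 in edgeR's test. The Bco2 call was lost without C replicate 1 or any of H replicates 1, 2 and 3 (adjusted p up to 0.335), and the Rdh16 call without C replicate 1 or 2 or any H mouse (adjusted p up to 0.360). In HC and HH Bco2 also lay below its controls without overlap (-0.90 and -1.92, the latter with adjusted p = 0.159) and was not called, and in HHC it overlapped them (0.25). Rdh16 was at -0.16 in H without C replicates 1 and 2 together. Aldh1a3, the third retinal dehydrogenase, was called in HH alone of the 4 comparisons (1.96, SE 0.54, adjusted p = 0.0702), from 4.54 and 8.47 CPM in CC_l to 20.3 and 34.6 CPM in HH, and lost the call without CC_l replicate 1 or HH replicate 2 (adjusted p up to 0.526). In HHC Aldh1a3 also lay above its controls without overlap, at 19.9 and 26.5 CPM against 10.5 and 11.3 in CCC. Its log2 fold change there was 1.23 (SE 0.53, adjusted p = 0.416 in edgeR's test). In H and HC it overlapped its controls. Of 8 receptors and co-regulators, the corepressor Nrip1 alone was called (-1.39 in H, adjusted p = 0.0852), and not without H replicate 1, C replicate 2 or H replicate 2 (adjusted p up to 0.352).

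The 6 genes listed as targets of retinoic acid were called in both directions. Hoxa5, a homeobox gene, was at 46.9 to 49.9 CPM in C and 12.5 to 15.2 in H, at 17.4 and 26.0 in CC_l and 6.94 and 7.21 in HH, and at 17.4 and 33.1 in CCC and 5.79 and 9.52 in HHC. Every HFD or WL mouse of these pairs lay below its controls, with log2 fold changes of -1.99 in H (adjusted p = 0.0187 in edgeR's test), -1.72 in HH (adjusted p = 0.0856) and -1.56 in HHC (adjusted p = 0.285). The call in H held without each mouse in turn, that in HH was lost without HH replicate 1, CC_l replicate 2 or HH replicate 2 (adjusted p up to 0.447), and that in HHC without HHC replicate 1, CCC replicate 2 or HHC replicate 2 (adjusted p up to 1). In HC Hoxa5 overlapped CC_s, at 5.93 to 42.2 against 29.2 to 35.4 CPM. The homeobox genes Meis1 and Meis2 fell in H (-2.19, adjusted p = 0.00996, and -1.76, adjusted p = 0.0166) and were at -1.24 and -0.97, not called, with C replicate 3 as the lone C library. Hic1, a transcriptional repressor, rose in H (1.66, adjusted p = 0.0742) and HH (1.73, adjusted p = 0.132), not called without C replicate 1 in H (adjusted p = 0.239) or without any 1 mouse in HH (adjusted p up to 0.557). Without C replicates 1 and 2 together, whose adipocyte marker sums were 22277 and 22937 CPM against 94204 in C replicate 3, 3 genes of the wider list (Ces1d, Ces1f and Hoxa5) were called in H in place of 11, in a fit with 1 C library, and left out singly, C replicate 1 or H replicate 2 left 7.

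The genes whose log2 CPM ran most like those of the other members over the 20 libraries, again as a description, were Clybl (r = 0.960), Mrpl49 (0.945) and Aptx (0.944) for Aldh1a1, and Ninj1 (0.892), Prpf8 (0.890) and Gm13509 (0.856) for Dhrs3. For Aldh1a2 they were Tgif1 (0.882), Trim59 (0.855) and Cenph (0.847), and for Retsat Ptcd3 (0.877), Acp5 (0.859) and Washc2 (0.853). For Rdh10 they were Ggh (0.797), Tvp23b (0.792) and Rnf13 (0.789), and for Rarb Nedd9 (0.788), Smurf2 (0.776) and Fam49a (0.760). For Stra6, with few counts in each library, they were Cntn1 (0.829), Gm13205 (0.824) and Xk (0.797).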

How the data were processed

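Per the labels and the study's methods, the authors trimmed reads with Trim Galore 0.6.6, aligned them to mm10 with HISAT2 2.2.1 and counted them per gene with featureCounts of Subread 2.0.1, and the deposited values are raw counts in 1 table of 20 libraries. The annotation release and the strand and pair settings are not given in the sources used here. Most counts were even, as when both ends of a pair are counted, and halved counts were 1 alternative. Symbols and exon lengths came from GENCODE vM21 (98.0% of identifiers matched).

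Counts were tested with edgeR 4.0.16 (R 4.3.3) by the quasi-likelihood test, with TMM factors, filterByExpr and 1 mean for each of the 8 groups, all 20 libraries in 1 fit (common dispersion 0.462). Alternatives were DESeq2 1.42.0, RLE factors, a likelihood ratio test, unfiltered genes, fits of the compared groups alone, a replicate block, halved counts, an adjusted threshold and leaving out each mouse. CPM used plain library totals. The members, gene lists and marker lists were chosen with earlier results of these data known. Named genes were all members, each further retinoid gene called in any comparison, the 10 of that list with the highest mean CPM, and the 3 genes most correlated with each member (log2 CPM, prior count 2). The values of 1 gene of the wider list are not reported here.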

Additional observations from a re-analysis of the deposited data

Results flagged for a closer look

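Rdh10 lay on opposite sides of its controls in the 2 long-arm comparisons, which put it here. Both HH mice lay above both CC_l mice (log2 fold change 1.17, SE 0.47), and both HHC mice lay below both CCC mice (-0.62, SE 0.46). The difference of the effects was -1.80 (SE 0.66, adjusted p = 0.197 in edgeR's quasi-likelihood test), which fails the correction over all genes. The CC_l mice were the lowest chow group, at 6.77 and 6.35 CPM, and the CCC mice the highest, at 16.0 and 21.9 CPM. With 2 mice a group, 56.3% of all tested genes did not overlap in HH and 27.9% in HHC, in either direction. The share of genes on opposite sides in these comparisons was not counted.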

How the results depend on the processing

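The number of members called was 1 in H, HC and HH and 0 in HHC. In H it was 0 with RLE normalization, with only the compared groups and with the replicate block, in HH it was 0 with the replicate block and 2 with DESeq2 (Dhrs9 and Rarb), and with adjusted p under 0.05 it was 0 in H, HC and HH. With each mouse left out it ranged from 0 to 1 in H, HH and HHC and stayed at 1 in HC, and without C replicate 3 the gene called in H was Dhrs3. For the wider list, DESeq2 gave 3 calls in HC and 2 in HHC, no filter on low counts 3 in HC and 2 in HHC, RLE normalization 0 in HHC, and the replicate block 3 in HH, beside 0 in HC, 5 in HH and 1 in HHC. Leaving out each mouse gave 7 to 12 calls in H, 0 to 2 in HC, 1 to 3 in HH and 0 to 3 in HHC, and leaving out C replicates 1 and 2 together gave 3 in H. These omissions for the wider list were chosen after seeing the data, and the last leaves 1 C library, assumed to vary like the other groups. For these changes, beyond the fewer samples, the cause was not tested.

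Retsat in H was at -0.0068 with DESeq2 and -0.0068 with RLE normalization, -0.031 with the replicate block and -0.39 without C replicates 1 and 2, where Stra6 was at 4.42. With the replicate block Aldh1a1 in HC was at -0.011, the mean effect of Retsat at -0.024 and its HHC effect minus HC effect at -0.035. The mean effect of Rdh10 was 0.035 with no filter on low counts. The mean effect of Rarb no longer passed with no filter (1.21, adjusted p = 0.0642) or with the replicate block (1.18, adjusted p = 0.0623), and that of Dhrs3 passed with DESeq2 (0.61, adjusted p = 0.0140). With each mouse left out in turn, the log2 fold change turned for Rdh10 in H (-0.49 to 0.060), Retsat in H (-0.31 to 0.42), HC (-0.52 to 0.17) and HHC (-1.38 to 0.39), Stra6 in H (-5.58 to 0.20), HC (-0.77 to 1.68) and HH (-2.20 to 1.25), Aldh1a1 in HC (-0.77 to 0.56) and HHC (-0.35 to 2.26), Aldh1a2 in HH (-0.45 to 1.65) and HHC (-0.33 to 1.93) and Dhrs3 in HHC (-0.019 to 0.23). The mean effects ranged from -0.28 to 0.11 for Rdh10, -0.30 to 0.17 for Retsat, -0.52 to 0.15 for Aldh1a1, 0.50 to 0.77 for Dhrs3 and 1.01 to 1.34 for Rarb. Deviations from the group mean correlated at -0.277 to 0.192 between same-numbered mice of compared groups. Differently numbered mice were not compared, so these values cannot show whether replicate numbers paired the mice. Of 232 member fold changes under settings that did not leave out a single mouse, 221 kept their direction and side of the cut-offs. Dhrs9 in H, HC and HH held the only calls of the main fit, so most of these fold changes had no call to lose.

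Groups of 2 or 3 mice limit every comparison, and Stra6 and the chow level of Dhrs9 rest on few counts.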
